A study of Homo sapiens with 12 samples.

Results

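The genes described here are CAV1, CAV2, CAVIN1, CAVIN2, CAVIN3, EHD2 and PACSIN2, which encode the coat and neck proteins of caveolae. Every probe that the platform annotation assigns to one of these 7 genes was taken, with symbols updated to RefSeq, which gave 11 of the 47323 probes on the array. The genes were chosen by their place in caveolae and by the CAV1 signals of Y15-treated and untreated U87 arrays, where CAV1 was lower with Y15, so that contrast is given below as a description with no test.

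Messenger RNA was measured on single-colour Illumina bead arrays in 2 glioblastoma cell lines, DBTRG and U87, with 2 arrays in each of 6 groups. The groups were DBTRG cells with 10 µM Y15 and untreated DBTRG cells, and U87 cells with temozolomide (TMZ) plus 10 µM Y15, with 10 µM Y15 alone, with TMZ alone and untreated. Y15 inhibits focal adhesion kinase, temozolomide is the DNA-alkylating drug used against glioblastoma, and per the series text exposure lasted 24 h. The TMZ dose is 20 µM in the sample titles and 100 µM in the series text, for both groups that received it. The labels name neither a vehicle for the untreated cells nor separate cultures behind the 2 arrays of a group, and the p-values therefore reflect array-to-array spread that could be purely technical. Both are established lines kept in culture, and the labels' extraction text speaks of frozen tissue although every sample is labelled as a cell line.

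Caveolae are small flask-shaped pits of the plasma membrane, rich in cholesterol, that buffer membrane tension and hold signalling receptors. Caveolins insert into the inner leaflet as a hairpin and oligomerise into the coat, the cavins form a peripheral scaffold around it, EHD2 sits at the neck and restrains the pit at the surface, and PACSIN2 is an F-BAR protein that bends the membrane. CAV1 and CAVIN1 are needed for caveolae in most non-muscle cells, and CAV1 is also a substrate of SRC-family kinases, which work with focal adhesion kinase at sites of adhesion.

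CAV2 and CAV1 are direct neighbours in the RefSeq gene order of chromosome 7. CAVIN1 lies on chromosome 17, CAVIN2 on 2, CAVIN3 on 11, EHD2 on 19 and PACSIN2 on 22. Promoter sequence was matched for 5 of the 7 genes. The sequences of CAV1 and EHD2 are shown because both genes fell when Y15 was added to TMZ, and that of CAV2 because its probes gave unlike values although it lies beside CAV1. Each is the 250 bases before the gene's most upstream annotated start in RefSeq (GRCh38.p14), 5′ to 3′ on the gene's own strand, with capitals marking the GC box GGGCGG on either strand. CAV1 is chr7:116524759-116525008 on the plus strand, CAV2 is chr7:116499488-116499737 on the plus strand and EHD2 is chr19:47713172-47713421 on the plus strand.
CAV1: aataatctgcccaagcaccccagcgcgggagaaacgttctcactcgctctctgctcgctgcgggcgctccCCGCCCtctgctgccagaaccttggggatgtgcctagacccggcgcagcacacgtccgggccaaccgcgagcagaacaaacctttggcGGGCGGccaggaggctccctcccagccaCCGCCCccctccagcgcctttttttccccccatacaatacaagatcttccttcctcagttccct
CAV2: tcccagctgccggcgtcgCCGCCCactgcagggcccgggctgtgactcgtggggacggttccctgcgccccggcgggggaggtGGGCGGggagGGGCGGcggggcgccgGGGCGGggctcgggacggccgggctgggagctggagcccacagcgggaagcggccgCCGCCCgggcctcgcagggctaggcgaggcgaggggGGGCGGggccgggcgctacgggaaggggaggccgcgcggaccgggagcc
EHD2: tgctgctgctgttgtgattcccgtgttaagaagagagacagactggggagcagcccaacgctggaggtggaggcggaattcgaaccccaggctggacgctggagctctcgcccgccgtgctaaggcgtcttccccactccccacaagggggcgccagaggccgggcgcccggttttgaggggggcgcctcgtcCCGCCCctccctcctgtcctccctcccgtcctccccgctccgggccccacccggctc
The GC box occurred 3 times in the CAV1 window, 6 times in the CAV2 window and 1 time in the EHD2 window, and it was present in 42.5% of 34943 RefSeq promoter windows of the same length. GC content was 63.6% for CAV1, 83.2% for CAV2 and 69.6% for EHD2, against a median of 58.0% over all windows. The AP-1 motif TGANTCA (6.59% of all windows), the CArG box (1.16%) and the TEAD core GGAATG (11.9%) were searched on both strands, do not overlap the GC box in letters, and had no match in these 3 windows. A match of letters is a description of the sequence only.

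Between 14437 and 16889 probes were detected per array at a detection p under 0.01. After normalization, replicate arrays correlated at 0.986 to 0.995 over the 11423 genes with a probe detected in at least 2 arrays. Of the glioma and neural markers, VIM, CD44, NES and SOX9 were detected in all 12 arrays, whereas GFAP and S100B, defining astrocytic markers, were detected in none. FABP7 was detected only in DBTRG arrays and OLIG2 only in U87 arrays. Values below are normalized log2 signals, in which each array's distribution was made the same, and a level is compared only between arrays for 1 probe, never between genes. RNA was taken from whole cultures, so fewer cells of a type and less RNA per cell cannot be told apart. All 7 genes passed the filter of detection in at least 2 arrays. CAV1, CAVIN1, CAVIN3 and PACSIN2 were detected in all 12 arrays, CAV2 and EHD2 in the 8 U87 arrays and in no DBTRG array, and CAVIN2 in 2 DBTRG arrays and no U87 array.

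**Figure D1:**
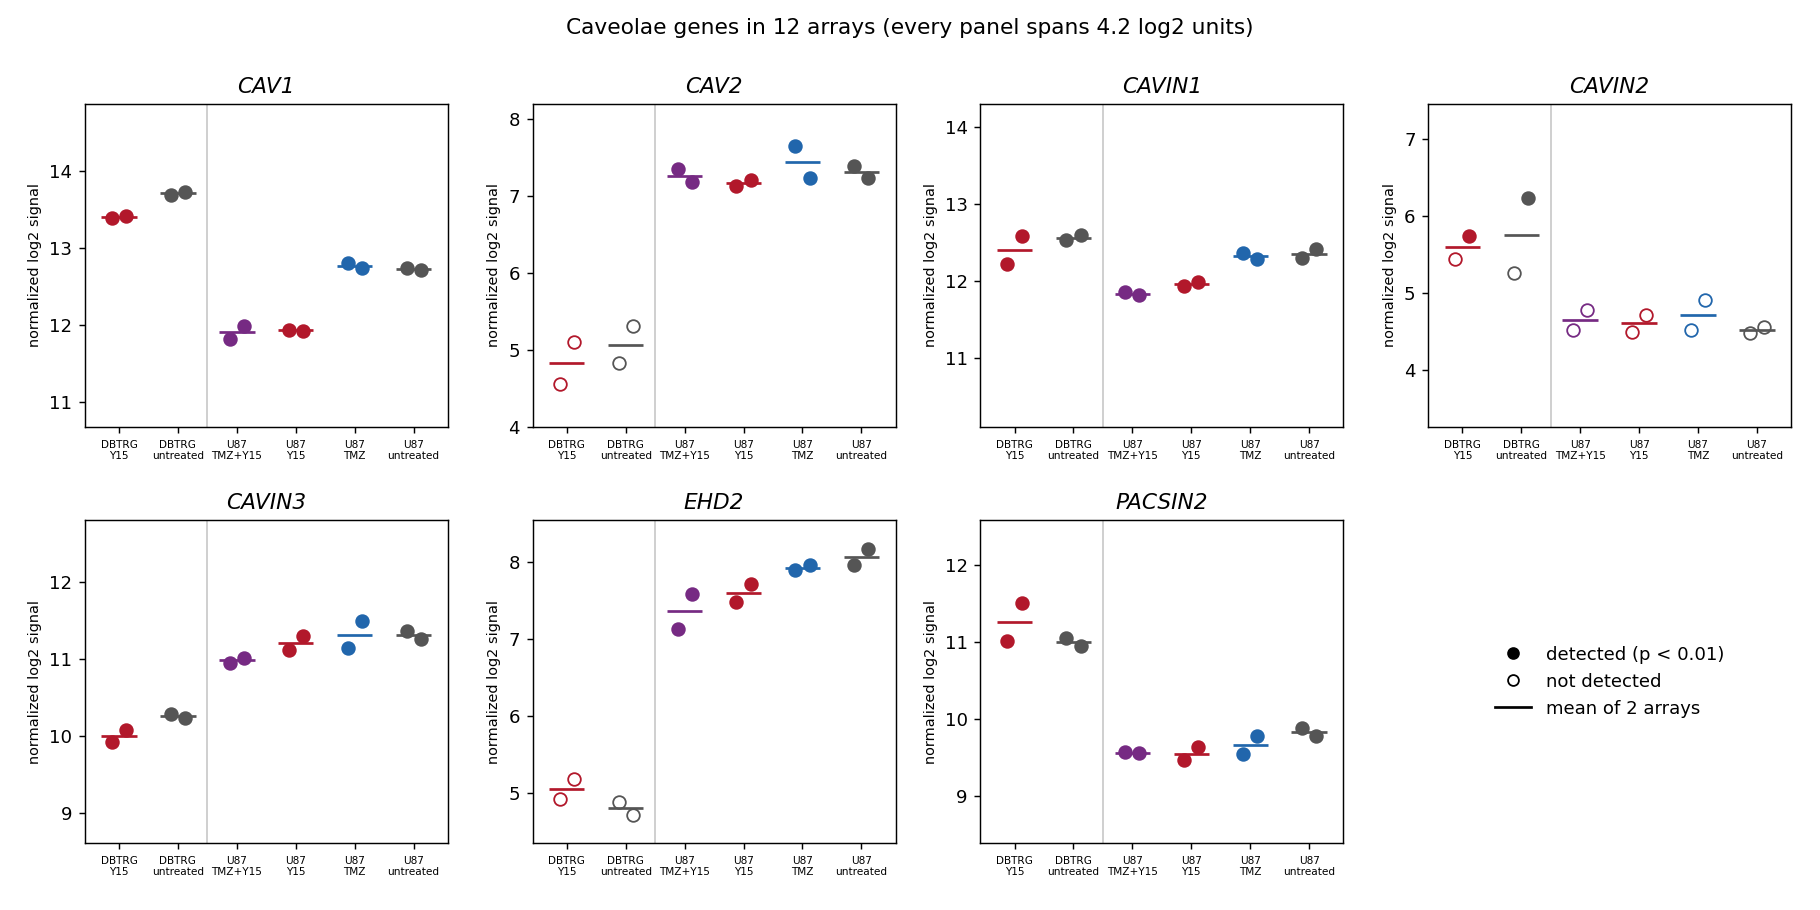
Normalized log2 signal (y axis) of the 7 caveolae genes in each of the 12 arrays, by group along the x axis, with filled points for arrays in which the probe was detected, open points for the others, and a bar at the mean of 2 arrays. In U87, both CAV1 points and both CAVIN1 points of the 2 Y15-containing groups lie below all points of the TMZ and untreated groups, while CAV2 and EHD2 points of DBTRG are all open.

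The cells that received Y15 on top of TMZ had less CAV1, CAVIN1 and EHD2 messenger RNA than cells with TMZ alone. The contrast that chose the genes did not use these 4 U87 arrays. However, the genes were chosen with earlier results of these data known, so these arrays are no independent check. In this contrast 3 of the 7 genes were lower and 0 were higher at an adjusted p under 0.05 by limma, against 25.3% of all 11423 genes tested (14.5% lower, 10.9% higher). The median change of the 7 genes was −0.33 on the log2 scale, against −0.05 over all genes.

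CAV1, the main caveolin of the coat, read 11.82 and 11.99 in U87 cells with TMZ plus Y15, against 12.79 and 12.74 in U87 cells with TMZ alone. Both combination arrays were lower than both TMZ arrays by more than the replicates differed, but the share of all genes separated in this way was not counted. The difference was −0.86 ± 0.10 (log2, SE), 1.82-fold lower, with an adjusted p of 0.000376 (limma, n = 2 arrays per group). The same probe's deposited signals, before any correction, were 4001.9 and 4317.2 with TMZ plus Y15, against 8614.8 and 7690.6 with TMZ. The second CAV1 probe, ILMN_1687583, read 8.38 and 8.74 with TMZ plus Y15, against 9.40 and 9.49 with TMZ. It gave a like difference of −0.89 ± 0.14, with an adjusted p of 0.00255 over the 19354 kept probes, of which 20.2% were called. The CAV1 call held in all 24 alternative analyses, with log2 differences from −0.95 to −0.78.

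CAVIN1, the cavin that stabilises the coat, read 11.85 and 11.81 with TMZ plus Y15, against 12.37 and 12.29 with TMZ. The 2 groups did not overlap, and the difference was −0.50 ± 0.13 (log2, SE), 1.41-fold lower, with an adjusted p of 0.0195 (limma). EHD2, the neck ATPase, read 7.14 and 7.59 with TMZ plus Y15, against 7.90 and 7.97 with TMZ. Again the groups did not overlap, although the 2 combination arrays differed from each other more than the TMZ arrays did. The share of all genes with separate groups was not counted in this contrast. The EHD2 difference was −0.57 ± 0.17 (log2, SE), 1.48-fold lower, with an adjusted p of 0.0335 (limma). Both calls rest on few arrays. Without 1 array of either group, CAVIN1 was no longer called (adjusted p 0.0613 to 0.106, in each of 4 such fits). EHD2 lost its call without TMZ replicate 1 (0.105), without TMZ replicate 2 (0.135) and without TMZ plus Y15 replicate 1 (0.245), where its difference shrank to −0.34.

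The other genes did not pass the test in this contrast. CAVIN3, a cavin that binds protein kinase C delta, read 10.95 and 11.02 with TMZ plus Y15, against 11.14 and 11.49 with TMZ, a difference of −0.33 with a 95% interval of −0.63 to −0.03 and an adjusted p of 0.103 (limma). PACSIN2 read 9.56 and 9.55 with TMZ plus Y15, against 9.54 and 9.77 with TMZ, and its interval of −0.45 to 0.26 spans 0. CAVIN2, a cavin that shapes caveolar membranes, was not above background in any U87 array and has no fold change in this line.

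CAV2, the partner that forms mixed oligomers with CAV1, was read by 3 probes that did not move alike. ILMN_1735220, which stands for the gene, had the highest mean over all 12 arrays. In U87, ILMN_1658835 was the brighter with TMZ (mean 7.70, against 7.44) and untreated (7.82, against 7.30). ILMN_1735220 read 7.35 and 7.17 in U87 cells with TMZ plus Y15, against 7.64 and 7.23 in U87 cells with TMZ. Its groups overlapped, with an adjusted p of 0.604 (limma). ILMN_1658835 read 7.06 and 6.37 with TMZ plus Y15, against 7.73 and 7.68 with TMZ. That probe differed by −0.99 ± 0.20 (log2, SE), 1.99-fold lower, with an adjusted p of 0.00692 over all kept probes. ILMN_2360730, detected in 5 of the 8 U87 arrays, read 5.31 and 5.65 with TMZ plus Y15, against 5.90 and 5.78 with TMZ (−0.36 ± 0.17, adjusted p 0.177). Averaging the 3 probes gave −0.51 with an adjusted p of 0.0270, so whether CAV2 is called depends on the probe. Which CAV2 transcripts the 3 probes read was not checked here.

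**Figure D2:**
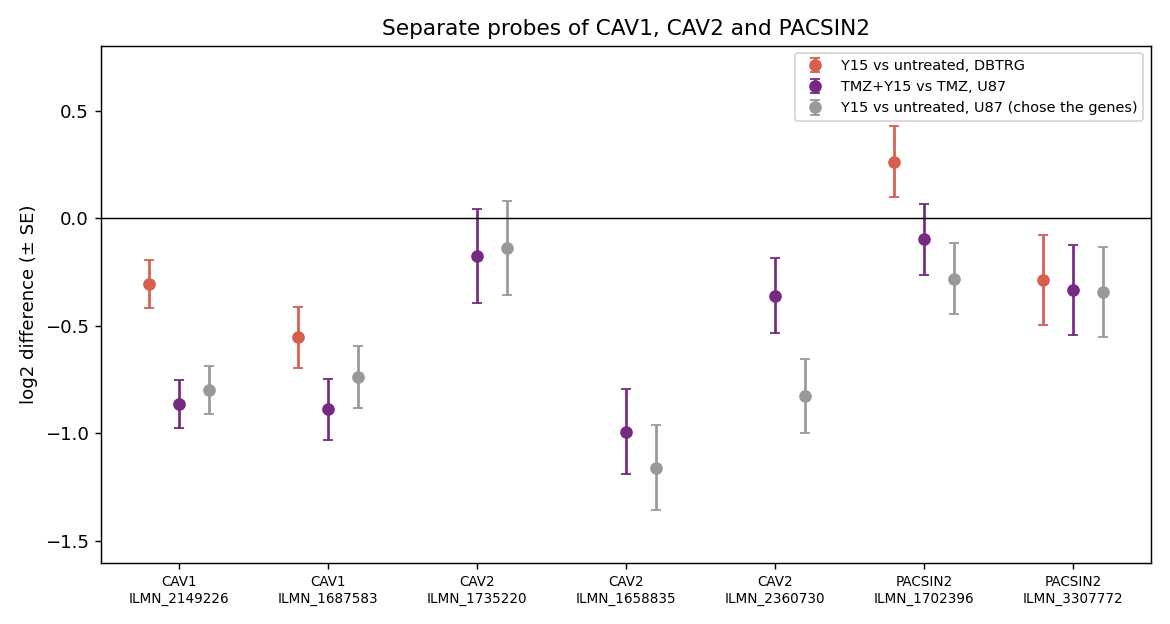
Log2 difference, first group minus second, with its standard error (y axis) for each probe of the 3 genes read by several probes (x axis), in 3 contrasts of which the grey one chose the genes. The 2 CAV1 probes sit together near −0.9 for TMZ plus Y15 against TMZ, and the CAV2 probes spread between −0.17 and −0.99 there, and no DBTRG point is drawn for CAV2, which was not above background in that line.

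In DBTRG cells, CAV1 was the only gene of the 7 that passed the test with Y15, and CAV2 and EHD2 could not be measured in this line. Of the 7 genes 1 was lower and 0 were higher at an adjusted p under 0.05, against 37.8% of all genes tested (18.4% lower, 19.4% higher). CAV1 read 13.39 and 13.41 in Y15-treated DBTRG cells, against 13.68 and 13.73 in untreated DBTRG cells. The groups did not overlap, but the share of all genes with separate groups was not counted. The CAV1 difference was −0.31 ± 0.10 (log2, SE), 1.24-fold lower, with an adjusted p of 0.0409 (limma). Deposited signals of this probe were 11254.5 and 11255.4 with Y15, against 12185.5 and 11149 untreated, and these overlap before normalization. The dimmer probe ILMN_1687583 read 10.80 and 10.86 with Y15, against 11.32 and 11.46 untreated, a difference of −0.55 ± 0.14 with an adjusted p of 0.0138 over all kept probes, of which 32.6% were called. The call on the brighter probe was lost in 15 of 23 alternatives, among them the omission of any 1 array other than those with TMZ plus Y15 (adjusted p 0.0546 to 0.134, 10 arrays), and with arrays centred on their medians the difference was −0.18.

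CAVIN1 read 12.22 and 12.59 in Y15-treated DBTRG cells, against 12.53 and 12.60 in untreated DBTRG cells. The Y15 arrays lay on either side of the lower untreated array, and the 95% interval of the difference was −0.45 to 0.13 (adjusted p 0.378, limma). With median centring its sign turned, to 0.06. CAVIN3 read 9.92 and 10.07 with Y15, against 10.28 and 10.23 untreated. Its groups did not overlap, a separation whose share over all genes was not counted. The CAVIN3 difference of −0.26 ± 0.14 had an adjusted p of 0.167 (limma). PACSIN2 read 11.01 and 11.50 with Y15, against 11.05 and 10.94 untreated, with overlapping groups, and its 2 probes had opposite signs (0.26 for ILMN_1702396 and −0.29 for ILMN_3307772, neither called). Without Y15 replicate 1 its difference was 0.51 and passed the threshold (adjusted p 0.0241, limma). CAVIN2 read 5.43 and 5.74 with Y15, against 5.26 and 6.23 untreated, and was detected in 1 array of each group. Without untreated replicate 1 its difference was −0.65 and passed (adjusted p 0.0434), and without untreated replicate 2 it was 0.33. The 95% interval over all arrays was −0.75 to 0.44. CAV2 and EHD2 were not above background in either DBTRG group, so their change in this line is unknown.

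**Figure D3:**
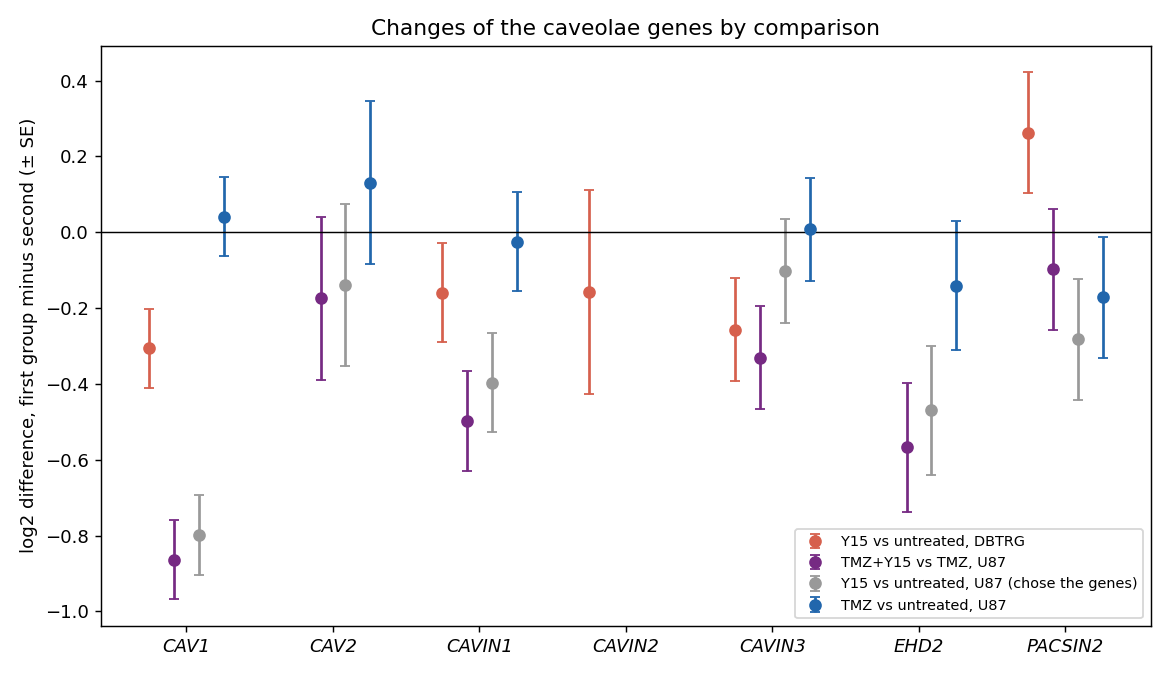
Log2 difference, first group minus second, with its standard error (y axis) for each caveolae gene (x axis) in 4 contrasts, of which the grey one chose the genes. CAV1 sits at −0.86 for TMZ plus Y15 against TMZ, −0.31 for Y15 in DBTRG and 0.04 for TMZ alone, and genes not above background in both groups of a contrast have no point.

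On its brighter probe, CAV1 changed less with Y15 in DBTRG cells than with Y15 added to TMZ in U87 cells. The difference of the log2 changes, Y15 against untreated in DBTRG minus TMZ plus Y15 against TMZ in U87, was 0.56 ± 0.15 for CAV1, with an adjusted p of 0.0272 (limma). A positive value means that CAV1 was lowered less in DBTRG. Across the array 18.0% of genes passed this test (11.1% higher, 6.96% lower), and CAV1 was the 1 member measured in both lines that did. The cell line and the presence of TMZ differ together in this comparison and cannot be told apart. The second CAV1 probe had −0.55 in DBTRG and −0.89 in U87, a difference of 0.33 with an adjusted p of 0.304 by limma (13.7% of kept probes were called), so the difference was called on the brighter probe alone. In DBTRG the brighter probe read 13.39 to 13.73, near the highest value on any array, 14.09. It stood there at percentile 99.3 to 99.8 of the kept probes. Whether a limit of its range made its change smaller in DBTRG was not tested. EHD2 and CAV2 lay below background in every DBTRG array, so no difference of changes is given for them. CAVIN1, at 0.34 with a 95% interval of −0.07 to 0.75, and CAVIN3, at 0.07 with an interval of −0.35 to 0.50, did not pass. The CAV1 call was lost in 8 of 23 alternatives, 5 of which left out 1 array, either untreated DBTRG array, either TMZ array or TMZ plus Y15 replicate 1 (adjusted p 0.0505 to 0.0974). Without Y15 replicate 1 of DBTRG, CAVIN1 (0.52, adjusted p 0.0408) and PACSIN2 (0.60, adjusted p 0.0459) passed as well.

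TMZ alone moved none of these genes past the threshold. None of the 7 was called in U87 with TMZ against untreated U87 by limma, where 1 gene of 11423 was (0.00875%) and 465 had an unadjusted p under 0.05, 0 of the 7 among them. CAV1 read 12.79 and 12.74 with TMZ, against 12.73 and 12.72 untreated, and its difference of 0.04 had a 95% interval of −0.19 to 0.27. CAVIN1 read 12.37 and 12.29 with TMZ, against 12.30 and 12.41 untreated, with an interval of −0.32 to 0.27. EHD2 read 7.90 and 7.97 with TMZ, against 7.97 and 8.18 untreated, with an interval of −0.52 to 0.24. The untreated U87 arrays also entered the contrast that chose the genes.

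The contrast that chose the genes is described here without a test. CAV1 read 11.93 and 11.92 in U87 cells with Y15 alone, against 12.73 and 12.72 in untreated U87 cells, a difference of −0.80 ± 0.10 (log2, SE). CAVIN1 read 11.93 and 11.99 with Y15, against 12.30 and 12.41 untreated (−0.40 ± 0.13), and EHD2 read 7.49 and 7.72 with Y15, against 7.97 and 8.18 untreated (−0.47 ± 0.17). For these 3 genes the groups did not overlap, but the share of all genes with separate groups was not counted. CAVIN3 differed by −0.10, PACSIN2 by −0.28 and CAV2, on the probe that stands for it, by −0.14. However, ILMN_1658835 of CAV2 read 6.69 and 6.64 with Y15, against 7.84 and 7.81 untreated (−1.16). ILMN_2360730 of CAV2 read 5.36 and 4.90 with Y15, not above background, against 5.93 and 5.99 untreated, at least 1.29-fold lower. In all, 22.0% of the array's genes pass the limma threshold in this contrast. Adding TMZ to Y15 left CAV1 at 11.82 and 11.99, on either side of the Y15-alone values, and TMZ plus Y15 minus Y15 alone was −0.02 ± 0.10 for CAV1, −0.13 ± 0.13 for CAVIN1 and −0.24 ± 0.17 for EHD2. With median centring these 3 values turned to 0.35, 0.25 and 0.24, where the median of all genes was 0.43. These contrasts share arrays with each other and with those above.

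Over the 6 groups, CAV1 was highest in untreated DBTRG (mean 13.71), then Y15-treated DBTRG (13.40), U87 with TMZ (12.77), untreated U87 (12.72), U87 with Y15 (11.93) and U87 with TMZ plus Y15 (11.90). The last 2 groups overlapped, and the TMZ and untreated U87 groups differed by 0.04 in mean, less than the SE of 0.10. CAVIN1 was highest in untreated DBTRG too, overlapping with Y15-treated DBTRG, and within U87 the TMZ and untreated groups overlapped above those with Y15 and with TMZ plus Y15. Within U87, CAV1 correlated with CAVIN1 at r = 0.959 and with EHD2 at r = 0.863 over the 8 arrays. It correlated at 0.663 with PACSIN2, 0.642 with CAVIN3 and 0.505 with the CAV2 probe ILMN_1735220, and CAVIN2 was not above background in U87. These coefficients are descriptions over 4 treatment groups, 2 of which hold Y15, so that genes lower in both of those groups take a high value. The arrays of the contrast that chose the genes are among them. The genes most like CAV1 by this measure were C2CD5 (0.995), PAG1 (0.993), NFAT5 (0.993), COQ2 (0.993) and KIF20B (0.992). For CAVIN1 they were ADGRG1 (0.997), STEAP3 (0.995), MARCHF4 (0.995), BAALC (0.995) and ASPM (0.994). For Y15 minus untreated in DBTRG, NFAT5 was at 0.87, against −0.72 in U87, and KIF20B was at −1.09, against −0.95 in U87, given as values.

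Untreated DBTRG cells had more CAV1 and PACSIN2 and less CAVIN3 messenger RNA than untreated U87 cells. Of the 4 genes detected in all 12 arrays these 3 passed the limma test, where 59.3% of all genes tested did (26.8% higher, 32.5% lower). CAV2 and EHD2 passed the detection filter through U87 arrays alone and CAVIN2 through DBTRG arrays alone, so these 3 genes had to differ to be included, and their values are given as a description with no test. The untreated U87 arrays also entered the contrast that chose the genes.

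CAV1 read 13.68 and 13.73 in untreated DBTRG, against 12.73 and 12.72 in untreated U87, 1.97-fold higher (0.98 ± 0.10 on the log2 scale, adjusted p 1.51e-05, limma), and its second probe, ILMN_1687583, was 3.68-fold higher. PACSIN2 read 11.05 and 10.94 in DBTRG, against 9.88 and 9.78 in U87, 2.24-fold higher (1.17 ± 0.16, adjusted p 9.84e-05), and its second probe, ILMN_3307772, was 3.64-fold higher. CAVIN3 read 10.28 and 10.23 in DBTRG, against 11.36 and 11.25 in U87, 2.07-fold lower (−1.05 ± 0.14, adjusted p 6.46e-05). Each of these 3 had groups that did not overlap, but the share of all genes with separate groups was not counted. Where a probe was not above background in a line, the dim side was set at the lowest signal of any detected probe on the array or the probe's own value, whichever was higher, and the fold is a bound. EHD2 read 4.89 and 4.72 in DBTRG, not above background, against 7.97 and 8.18 in U87, and was at least 5.93-fold lower in DBTRG. CAV2 read 4.82 and 5.31 in DBTRG, not above background, against 7.38 and 7.23 in U87, at least 3.48-fold lower, and its other probes were at least 4.99-fold and 1.37-fold lower. CAVIN2 read 5.26 and 6.23 in DBTRG, of which 1 array was detected, against 4.48 and 4.55 in U87, not above background, and was at least 1.32-fold higher. CAVIN1 was close in both lines, at 12.53 and 12.60 in DBTRG, against 12.30 and 12.41 in U87 (0.21 ± 0.13, adjusted p 0.201), and with median centring its difference turned to −0.24.

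Other genes of the caveolar pathway were taken as a list of 30 coat, neck, kinase and receptor partners, 19 of which were measured. With Y15 in DBTRG, 4 rose and 5 fell, 47.4% of the list against 37.8% of all genes. TGFBR2, the type II TGF-β receptor, fell by 0.98 ± 0.12 on the log2 scale (adjusted p 0.000175, limma), and FASN, fatty acid synthase, fell by 0.68 ± 0.15 (0.00443). FYN, an SRC-family kinase, rose by 0.78 ± 0.18 (0.00613), and ABL2, a related tyrosine kinase, was at least 1.09-fold higher. With TMZ plus Y15 against TMZ in U87, 2 rose and 5 fell, 36.8% of the list against 25.3% of all genes. PRKCA, protein kinase C alpha, fell by 0.99 ± 0.12 (adjusted p 0.000409), TGFBR2 fell by 0.57 ± 0.12 (0.00791) and ABL1 fell by 0.63 ± 0.15 (0.0110), while a second ABL1 probe was called the opposite way. SRC, which phosphorylates caveolin-1, rose by 0.50 ± 0.12 (0.0134). The list's median was −0.21 in DBTRG and −0.12 in U87, against 0.01 and −0.05 over all genes. By limma 0 of the 19 were called for TMZ alone and 0 for the difference of the Y15 change between DBTRG and TMZ-treated U87, where 1 and 6 had an unadjusted p under 0.05. Between the untreated lines 5 were higher and 5 lower in DBTRG, 52.6% of the list against 59.3% of all genes, with PRKCA at −3.09 ± 0.12, EHD1 at −1.30 ± 0.12 and STOM, stomatin, at 1.35 ± 0.11, and IGF1R, the type 1 IGF receptor, at least 1.48-fold higher.

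Clathrin-coated pits, the other major coated entry route, were set beside them with 32 coat and adaptor genes, of which 24 were measured. In DBTRG 4 rose and 8 fell with Y15, 12 of the 24 measured, against 37.8% of all genes. In U87 0 rose and 7 fell with TMZ plus Y15 against TMZ, 29.2% of the list against 25.3% of all genes. HIP1, which links clathrin coats to actin, fell by 1.46 ± 0.13 in DBTRG (adjusted p 1.99e-05, limma) and by 0.46 ± 0.13 in U87 (0.0263). AMPH, amphiphysin, fell by 1.20 ± 0.13 in DBTRG (7.22e-05) and by 0.46 ± 0.13 in U87 (0.0264). AP2B1, an AP-2 adaptor subunit, fell by 0.96 ± 0.15 in DBTRG (0.000636), ITSN1, the scaffold intersectin, fell by 0.82 ± 0.11 in DBTRG and by 0.46 ± 0.11 in U87, and EPN2, an epsin, fell by 0.70 ± 0.14 in U87 (0.00657). The median over the list was −0.08 in DBTRG and −0.17 in U87, and 0 of the 24 were called for TMZ alone by limma, with 0 at an unadjusted p under 0.05. For the difference of the Y15 change between DBTRG and TMZ-treated U87, 4 of the 24 passed (16.7%, against 18.0% of all genes). AMPH was at −0.74, EPN1 at 0.84 and EPN2 at 0.80, and HIP1 was lowered more in DBTRG (adjusted p 0.00525, limma). Line and TMZ cannot be told apart in these values. Untreated DBTRG and U87 differed in 16 of them, 66.7% against 59.3% of all genes, with 7 higher and 9 lower in DBTRG, including DNM1, the neuronal dynamin, at −2.23, DAB2 at −1.33, EPN2 at −1.41 and AP2B1 at 1.73.

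Markers of endothelium, adipocytes and striated muscle, which are rich in caveolae, and of microglia, macrophages and epithelium were read on the same arrays. Of 7 endothelial markers, CDH5, VWF, KDR, CLDN5 and EMCN were detected in no array, and the summed linear signal of the list was 200 to 202 in U87 with TMZ plus Y15 and 193 to 213 with Y15, against 254 to 271 with TMZ and 246 to 250 untreated. TEK and PECAM1 were its detected members. Every sum given here includes the background values of undetected genes, so it is not a measure of detected genes alone. The 5 striated muscle markers were detected in no array. Of 5 adipocyte markers, ADIPOQ, FABP4 and CIDEC were detected in none, PLIN1 was detected in 1 DBTRG array and LEP in 8 U87 arrays and 1 DBTRG array, and the list summed to 231 to 236 with TMZ plus Y15 and 287 to 447 with Y15, against 151 to 172 with TMZ and 156 to 162 untreated. Microglia and macrophage markers summed to 3842 to 4757 over the U87 arrays and to 266 to 514 over the DBTRG arrays. CD68 was detected in all 12 arrays, CSF1R in U87 alone, and PTPRC, the pan-leukocyte marker, in none. AIF1 was detected in 6 U87 arrays and 1 DBTRG array, and CD14 in 6 U87 arrays and 3 DBTRG arrays. Of 4 epithelial markers CDH1 was detected in none, KRT18 in 4 DBTRG arrays, KRT8 in 3 DBTRG arrays and EPCAM in 4 U87 arrays. The epithelial list summed to 452 to 489 in DBTRG with Y15, against 302 to 307 untreated, and to 106 to 142 in U87. The part of these lists in the caveolae results was not tested.

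**Figure D4:**
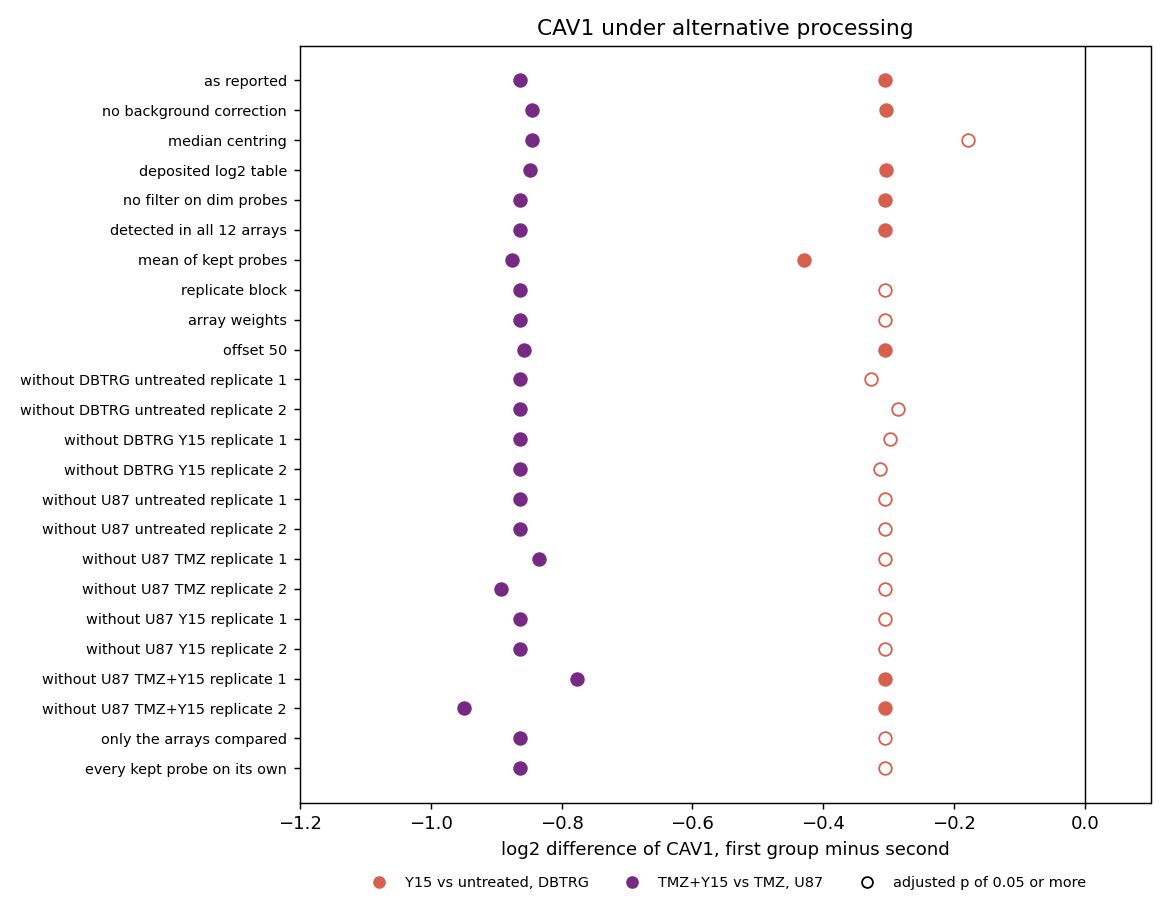
Log2 difference of CAV1 (x axis), first group minus second, for the values as reported and each alternative (y axis), in DBTRG with Y15 against untreated and in U87 with TMZ plus Y15 against TMZ, with open points where the adjusted p was 0.05 or more. All U87 points lie between −0.95 and −0.78 and are filled, whereas the DBTRG points lie between −0.43 and −0.18 and 15 of the 23 alternatives are open.

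The arrays' scaling bears on these values. When each array was centred on its median in place of being given a common distribution, the median of all genes moved to −0.60 in U87 with Y15 against untreated, −0.17 with TMZ plus Y15 against TMZ, 0.11 in DBTRG with Y15 against untreated and −0.48 in untreated DBTRG against untreated U87. CAV1 relative to that shift was −0.58, −0.67, −0.29 and 1.15 in the same order of contrasts. CAV1 kept its direction in these 4 contrasts under both scalings. Both CAV1 and CAVIN1 turned for TMZ plus Y15 against Y15, as given above, and CAVIN1 also turned in DBTRG with Y15 and between the untreated lines, where it was not called.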

How the data were processed

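The genes and gene lists were chosen with earlier results of these data known. Per the labels' protocols, biotin-labelled cRNA was made from total RNA, and the submitters' processing notes name GenomeStudio without a version. The authors deposited linear intensity values for every probe, which the values show to be unnormalized, with a detection p-value beside each, per the file headers. Their other deposited table, in log2 values of unstated normalization, served as an alternative. Signals were background-corrected with normexp by detection p (offset 16), taken to log2 and quantile-normalized in limma 3.58.1 (R 4.3.3).

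Probes were kept with a detection p under 0.01 in at least 2 of 12 arrays, which left 19354. Symbols came from the platform annotation, which gave 1 symbol for 30113 probes, several for 8 and did not list 17202. A symbol was replaced by the RefSeq symbol of the same gene identifier where RefSeq had one. The brightest probe stood for a gene, giving 11423 genes. One model of 6 group means over all arrays (6 residual degrees of freedom) was fitted with lmFit and eBayes, and p-values are two-sided with Benjamini-Hochberg adjustment over all genes, threshold 0.05. The model was tested on simulated data. Replicate numbers did not pair the arrays: correlations of deviations were −0.055 to 0.087. No slide or scan batch is given in the sources used here. The number of arrays limits the precision. Named list genes are at most the 4 called genes of smallest p per list and contrast, and the 5 genes closest to CAV1 and to CAVIN1 by Pearson r over U87 arrays. Alternatives covered background correction, offset, scaling, filter, choice of probe, array weights, a replicate block, the arrays in the fit and leaving out each array. A fit of U87 arrays alone was added after seeing the data.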

Additional observations from a re-analysis of the deposited data

Results flagged for a closer look

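The change of CAV1 with Y15 differed between DBTRG and TMZ-treated U87 cells by 0.56 ± 0.15 on the log2 scale (adjusted p 0.0272, limma), being lower by 0.31 in DBTRG and by 0.86 in U87, in both arrays of each group. The second CAV1 probe gave 0.33 (adjusted p 0.304, limma). The brighter probe lay near the top of the signal range in DBTRG (13.39 to 13.73, highest value on any array 14.09). Line and TMZ cannot be told apart in this value.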

How the results depend on the processing

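The lower CAV1 with TMZ plus Y15 against TMZ kept its direction and call in all 24 alternatives (−0.9494 to −0.7768, adjusted p 1.86e-06 to 0.00576, limma), and members called there numbered 3, with 1 to 3 on leaving out an array. EHD2 there missed the threshold with no filter (0.0549) and with only the arrays compared (0.0519), and CAVIN3 passed it with no background correction (0.0336) and in the deposited log2 table (0.0368). In DBTRG, the number of members called was 0 with median centring (CAV1 −0.179, adjusted p 0.462), the replicate block (−0.3062, 0.0569), array weights (0.118), only the arrays compared (0.186) and every kept probe (0.0592), and 0 to 1 without an array, with CAV1 from −0.3272 to −0.2853. The replicate block changed no other member's call. For TMZ alone, averaging kept probes turned CAV1 to −0.0098 and CAV2 to −0.0369, and PACSIN2 in DBTRG to −0.0127. Between untreated lines, the fit called 6 members, where 59.3% of all genes were called. That count includes the 3 that had to differ, for which no test is given above. Of the 4 members left when detection in all 12 arrays was asked, 3 were called. Median centring turned CAVIN1 to −0.2358, as it did in DBTRG with Y15 (0.0558). For the difference of the Y15 change between the lines, members called numbered 2, a count that includes EHD2 although its DBTRG side was not above background, and were 1 with median centring, no filter, detection in all 12 arrays, averaged probes, array weights and every kept probe, 0 with only the arrays compared, and 0 to 4 without an array. CAV1 there was 0.6664 with median centring (0.0561), 0.4457 with averaged probes (0.0856), 0.5569 with only the arrays compared (0.0705) and 0.4705 to 0.6432 without an array. TMZ was present on the U87 side of this difference alone, and in the main fit 18.0% of all genes were called. Leaving out arrays gave ranges that spanned 0 for uncalled genes: in DBTRG, CAVIN1 −0.3426 to 0.0246 and CAVIN2 −0.6462 to 0.3292; with TMZ plus Y15 against TMZ, CAV2 −0.3813 to 0.0325 and PACSIN2 −0.2137 to 0.0184; with TMZ, CAV2 −0.0759 to 0.338, CAVIN1 −0.0838 to 0.0344 and CAVIN3 −0.1644 to 0.1805; for the difference of the Y15 change, CAVIN3 −0.099 to 0.2459. All genes called numbered 4313 (2602 with only the arrays compared) in DBTRG and 2895 with TMZ plus Y15 (1274 to 3333 without an array). The causes were not tested. Genes not above background have bounds only.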
